A study of Mus musculus with 4 samples.

Results

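Ddit4, Arrdc3 and 8 other genes of the glucocorticoid response of muscle (Fkbp5, Tsc22d3, Klf15, Sgk1, Zbtb16, Nr3c1, Cebpd and Arrdc2) were followed in calf muscle of mice lacking Fundc1. The 10 genes are the rows of the deposited gene table that carry these names, 10 of 25833 rows and 10 of 14134 rows that the authors tested, and each name had a single row. They were chosen by their FPKM in both genotypes and by the authors' q for this contrast, with earlier results known, so their levels and changes are given as a description. RNA of the gastrocnemius was sequenced in 8-week-old C57BL/6J mice of 2 groups, muscle-specific Fundc1 knock-outs (Fundc1-mKO, 2 libraries) and wild-type mice serving as their controls (WT, 2 libraries). Fundc1 encodes a mitophagy receptor of the outer mitochondrial membrane. The sources used here do not give the promoter that drives the deletion, the sex of the mice or the hour of tissue collection.

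Glucocorticoids are adrenal steroids that enter the cell and bind the glucocorticoid receptor, which is held ready by a chaperone complex built on HSP90. The bound receptor moves to the nucleus, sits on palindromic DNA elements and raises the transcription of genes such as Fkbp5, Tsc22d3, Sgk1, Zbtb16, Klf15 and Ddit4. In skeletal muscle this program is known for restraining growth through mTORC1 and for promoting protein breakdown and the use of amino acids. Several of these genes also respond to other inputs, among them hypoxia, amino acid shortage, feeding state and cAMP.

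The deposited table holds 1 value per gene and group, made by the authors from both libraries, in FPKM, a fragment count scaled to transcript length and library size, with the authors' interval around it. The spread between mice and the depth of each library are therefore unknown here. A gene is said to have risen or fallen where the authors' deposited table gives it a q below 0.05. Fundc1 itself was at 4.23 FPKM in Fundc1-mKO (interval 3.15 to 5.31) and 20.1 FPKM in WT (interval 16.3 to 23.8).

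The 10 genes ranged from lower in Fundc1-mKO muscle to nearly level. Ddit4 fell by 52.6%, Arrdc3 fell by 43.3%, Sgk1 fell by 33.5% and Cebpd fell by 26.0%. Fkbp5, Klf15, Zbtb16 and the receptor gene Nr3c1 differed by 5.01% or less, and Tsc22d3 and Arrdc2 lay between, at changes of -14.8% and -13.2% that did not pass the authors' q. In all, 4 of 10 genes fell and none rose, beside 2.25% of all tested rows that fell, 0.92% that rose and 3.17% called in either direction. All 4 share the smallest q in the authors' deposited table, 0.00338. FPKM was lower in Fundc1-mKO for 7 of the 10, beside 56.6% of tested rows. The median log2 ratio was -0.22, and that of all tested genes averaging 1 FPKM or more was -0.02.

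**Figure D1:**
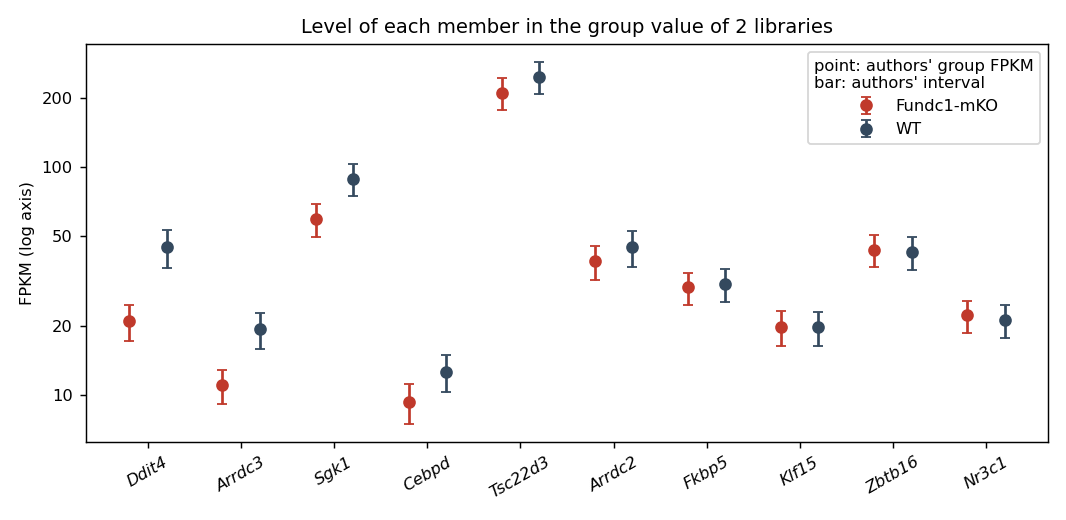
FPKM of each gene (log axis) in Fundc1-mKO and WT, ordered by the ratio between them; points are the authors' group values over 2 libraries and bars the authors' intervals. The bars of Ddit4, Arrdc3 and Sgk1 lie apart, those of Cebpd overlap, and the points of Fkbp5, Klf15, Zbtb16 and Nr3c1 nearly coincide.

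Ddit4 encodes REDD1, a stress-induced protein that restrains mTORC1 through the TSC complex and is known to be raised in muscle by glucocorticoids and by hypoxia. It was at 21.0 FPKM in Fundc1-mKO (interval 17.3 to 24.8) and 44.4 FPKM in WT (interval 36.0 to 52.8), so the intervals lay apart. The log2 ratio was -1.08 with an SE of 0.19, derived from the authors' intervals, which is 2.11-fold lower. Ordered by log2 ratio from the lowest, Ddit4 stood at place 19 of 10487 tested genes averaging 1 FPKM or more. Its locus spans chr10:59949675-59951770 in mm10, on the minus strand, and the GENCODE annotation gives a protein-coding gene whose exons share no base with another gene.

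Arrdc3 encodes an alpha-arrestin, an adaptor that in human cells links membrane proteins to ubiquitin ligases of the NEDD4 family. Its level was 11.0 FPKM in Fundc1-mKO (interval 9.11 to 12.9) and 19.5 FPKM in WT (interval 16.0 to 23.0), again apart. That is 1.76-fold lower, a log2 ratio of -0.82 with an SE of 0.18, and it stood at place 32 in the same order. The locus, chr13:80883422-80896043, lies on the plus strand and shares no exon base with another gene.

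The promoters of both genes are shown because these are the 2 largest falls among the 10. Each window runs from 250 bases before to 50 bases after the start that coincides with the edge of the authors' locus, 5′ to 3′ on the gene's strand, from RefSeq on GRCm38.p6, the assembly of mm10. Capitals in the Ddit4 window, chr10:59951721-59952020 on the minus strand, mark ACGTG, the core letters of the hypoxia response element.
Ddit4: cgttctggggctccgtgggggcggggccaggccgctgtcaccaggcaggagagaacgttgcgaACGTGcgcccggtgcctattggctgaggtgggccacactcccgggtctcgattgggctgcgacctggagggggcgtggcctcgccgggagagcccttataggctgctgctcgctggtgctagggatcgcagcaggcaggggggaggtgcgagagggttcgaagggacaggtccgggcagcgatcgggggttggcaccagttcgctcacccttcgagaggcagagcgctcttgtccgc
Arrdc3: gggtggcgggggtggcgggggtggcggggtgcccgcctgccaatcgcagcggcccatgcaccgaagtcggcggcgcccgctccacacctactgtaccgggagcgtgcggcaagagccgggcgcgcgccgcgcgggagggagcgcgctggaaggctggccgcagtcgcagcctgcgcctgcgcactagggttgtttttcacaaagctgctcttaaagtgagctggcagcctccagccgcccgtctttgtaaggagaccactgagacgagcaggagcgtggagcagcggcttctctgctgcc
The Arrdc3 window, chr13:80883172-80883471 on the plus strand, has no capitals because it holds no match to any of the motifs searched. The second Arrdc3 window, not shown, held ACGTG at positions -205 to -201 relative to its own start. It also held an arm of the cAMP response element at -248 to -244. The Ddit4 window held the ACGTG letters at positions -187 to -183 relative to its start and no match to the glucocorticoid response element or a single arm of it. ACGTG occurred in 5 of 16 windows of the 7 members searched, and in 19.6% of all 32851 mouse windows.

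Sgk1, the serum- and glucocorticoid-regulated kinase, fell 1.50-fold. It was at 58.9 FPKM in Fundc1-mKO (interval 49.4 to 68.5) and 88.7 FPKM in WT (interval 74.3 to 103), so these intervals were apart as well. The log2 ratio was -0.59 with an SE of 0.17. The row sums 6 transcript start groups over chr10:21882184-21999902, and RefSeq lists 6 starts there, so the level does not say which start was used.

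A window of Sgk1 and a window of Tsc22d3 are shown because only these genes, among the 7 searched, held arms of the glucocorticoid response element. The full palindrome was searched as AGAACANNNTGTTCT and an arm as AGAACA on either strand, so each full match also counts as arms. Capitals mark the arms. The Sgk1 window is the fifth of its 6 starts, chr10:21993640-21993939 on the plus strand, and the Tsc22d3 window is chrX:140600473-140600772 on the minus strand.
Sgk1: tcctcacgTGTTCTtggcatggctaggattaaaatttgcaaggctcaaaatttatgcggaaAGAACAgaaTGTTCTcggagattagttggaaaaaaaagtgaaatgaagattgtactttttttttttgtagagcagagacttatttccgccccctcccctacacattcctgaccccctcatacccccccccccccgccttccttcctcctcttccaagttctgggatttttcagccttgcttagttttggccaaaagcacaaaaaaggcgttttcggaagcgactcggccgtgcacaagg
Tsc22d3: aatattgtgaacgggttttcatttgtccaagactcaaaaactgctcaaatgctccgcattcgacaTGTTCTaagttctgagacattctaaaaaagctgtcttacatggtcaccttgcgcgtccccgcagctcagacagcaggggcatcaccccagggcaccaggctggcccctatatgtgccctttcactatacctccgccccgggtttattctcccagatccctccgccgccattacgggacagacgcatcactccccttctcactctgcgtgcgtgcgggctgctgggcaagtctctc
The full palindrome was found in the Sgk1 window, at chr10:21993701-21993715, which is 175 bases before the start of that window and 951 bases before the last of the 6 starts. It occurred in 3 of all 32851 windows. An arm occurred in 4 of 16 windows, 3 of Sgk1 and 1 of Tsc22d3, and in 19.0% of all windows. An arm of the cAMP response element, TGACG, occurred in 4 of 16 windows, and in 20.8% of all windows. Windows 1 and 3 of Arrdc3 overlap, a match is no evidence of binding, and more distant elements were not searched. Zbtb16, Nr3c1 and Cebpd had no entry in the promoter table.

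**Figure D2:**
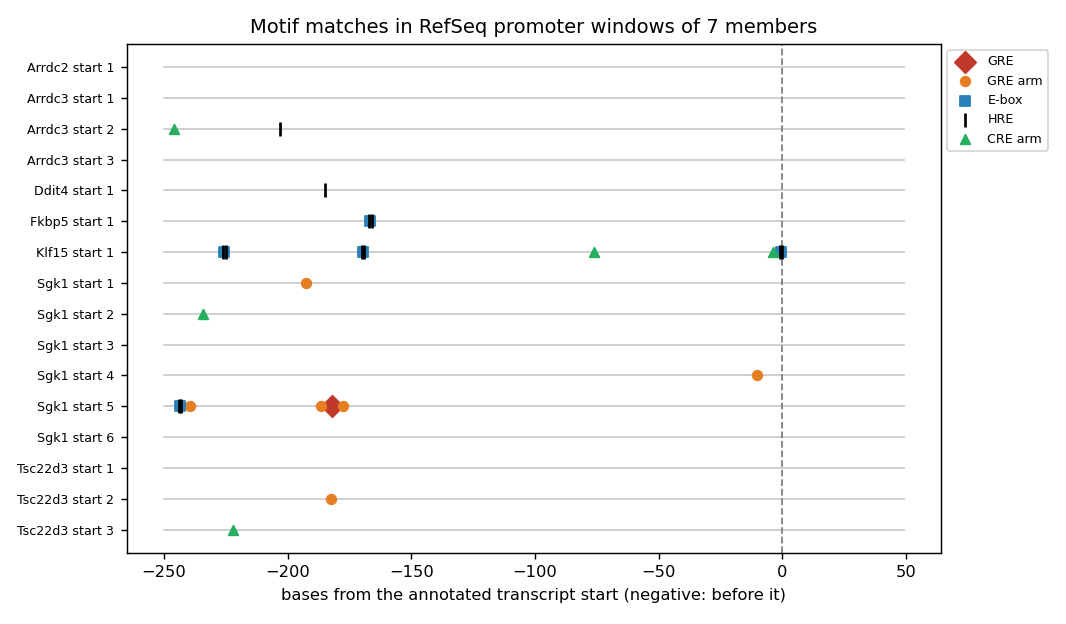
Positions of motif matches (symbols) in the 16 promoter windows of 7 genes, in bases from each annotated start, which is the dashed line. GRE is the full glucocorticoid response element and GRE arm a single arm of it, CRE arm an arm of the cAMP response element, and HRE the core of the hypoxia response element, which also lies inside each E-box. The full element appears in 1 window, the fifth start of Sgk1.

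Cebpd encodes C/EBP delta, a transcription factor of the acute phase and fat cell programs. It had the lowest level of the 10, at 9.35 FPKM in Fundc1-mKO (interval 7.50 to 11.2) and 12.6 FPKM in WT (interval 10.3 to 15.0). The intervals overlapped, and the log2 ratio was -0.43 with an SE of 0.20, a 1.35-fold lower level. Of the 3746 exon bases of Cebpd, 562 overlap exons of Spidr on the opposite strand, and the authors' table gives both genes the same locus. Spidr was at 0.752 FPKM in Fundc1-mKO and 0.680 FPKM in WT. The sources used here do not give the strand setting of the counting, so reads of the shared bases cannot be told apart. Intervals were thus apart for 3 of the 10 genes, beside 0.715% of all tested rows.

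Tsc22d3 encodes GILZ, a leucine zipper protein that carries part of the anti-inflammatory action of glucocorticoids, and was the most abundant of the 10. It was at 212 FPKM in Fundc1-mKO (interval 178 to 246) and 249 FPKM in WT (interval 209 to 288). The log2 ratio of -0.23 with an SE of 0.16 came with a raw p of 0.004 and a q of 0.0883 in the authors' deposited table. Arrdc2, another alpha-arrestin gene, was at 38.5 FPKM in Fundc1-mKO and 44.4 FPKM in WT, with a log2 ratio of -0.20 and an SE of 0.18. Its raw p was 0.0190 and its q 0.217 in the authors' deposited table. Counting by the raw p of the authors' deposited table, 6 of 10 genes lay under 0.05, beside 13.7% of tested rows. The authors' statistics for Tsc22d3 and Arrdc2 were -1.42 and -1.15, for which a normal distribution gives a larger p.

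The receptor gene and 3 of its best known targets were nearly level. Fkbp5, whose product is a co-chaperone that lowers the receptor's affinity for hormone, was at 29.7 FPKM in Fundc1-mKO (interval 24.9 to 34.5) and 30.6 FPKM in WT (interval 25.6 to 35.6). Zbtb16, a zinc finger transcription factor gene strongly induced by glucocorticoids in many cells, was at 43.4 FPKM in Fundc1-mKO and 42.3 FPKM in WT. Klf15, a transcription factor of amino acid breakdown in muscle, was at 19.9 FPKM in Fundc1-mKO and 19.8 FPKM in WT. Nr3c1, the receptor gene, was at 22.4 FPKM in Fundc1-mKO and 21.3 FPKM in WT.

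The log2 ratios of these level genes ran from -0.05 for Fkbp5 to 0.07 for Nr3c1, each with an SE of 0.16 to 0.17. Ranges of 2 SE reached from -0.38 to 0.29 for Fkbp5, from -0.34 to 0.35 for Klf15, from -0.29 to 0.37 for Zbtb16 and from -0.26 to 0.40 for Nr3c1. Taken without their own errors, the log2 ratios of Ddit4, Arrdc3, Sgk1 and Cebpd lay outside each of these 4 ranges, while that of Tsc22d3 lay inside them. With ranges of 2 SE on both sides, Ddit4 and Arrdc3, with upper ends of -0.70 and -0.46, overlapped none of the 4. The range of Sgk1, from -0.92 to -0.26, overlapped those of Fkbp5, Klf15 and Zbtb16. The range of Cebpd, from -0.83 to -0.04, overlapped all 4.

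**Figure D3:**
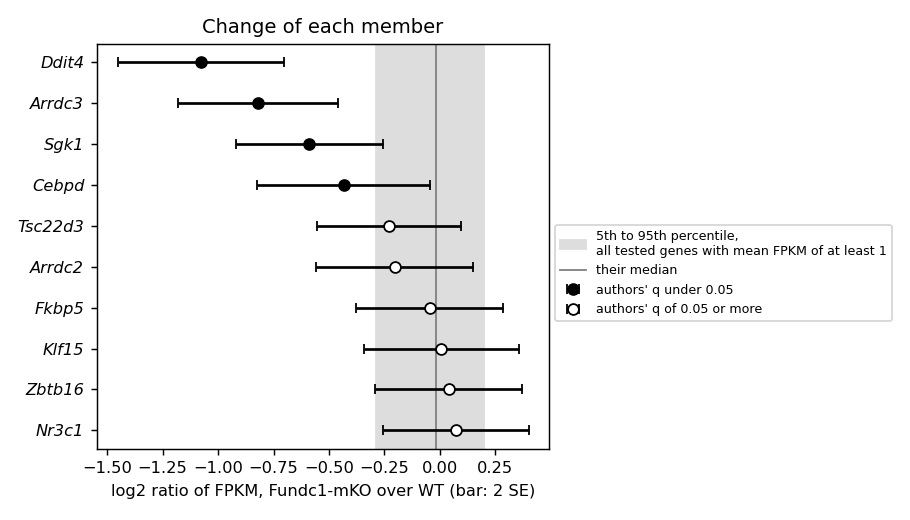
Log2 ratio of FPKM, Fundc1-mKO over WT, for each of the 10 genes, with bars of 2 SE derived from the authors' intervals; filled points have a q under 0.05 in the authors' table. The grey band spans the 5th to 95th percentile of 10487 tested genes, from -0.29 to 0.20, and the points of Ddit4, Arrdc3, Sgk1 and Cebpd lie to its left.

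FPKM is scaled to length, so the 10 genes can be ordered within each group. In Fundc1-mKO the order was Tsc22d3, Sgk1, Zbtb16, Arrdc2, Fkbp5, Nr3c1, Ddit4, Klf15, Arrdc3 and Cebpd. In WT it was Tsc22d3, Sgk1, Arrdc2, Ddit4, Zbtb16, Fkbp5, Nr3c1, Klf15, Arrdc3 and Cebpd. Ddit4 was thus at place 7 in Fundc1-mKO and at place 4 in WT, and its neighbours there overlapped it in their intervals. Between neighbours, intervals were apart in Fundc1-mKO for Tsc22d3 and Sgk1 and for Klf15 and Arrdc3. In WT they were apart for Tsc22d3 and Sgk1, Sgk1 and Arrdc2, Fkbp5 and Nr3c1, and Arrdc3 and Cebpd. The summed level of the 10 was 466 FPKM in Fundc1-mKO and 572 FPKM in WT.

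The gap between the genes that fell and their relatives differed from pair to pair. Ddit4l, the muscle-rich relative of Ddit4 that also restrains mTORC1, was at 73.6 FPKM in Fundc1-mKO and 61.7 FPKM in WT, with q = 0.0678 in the authors' deposited table. It stood 3.50-fold above Ddit4 in Fundc1-mKO and 1.39-fold above it in WT. The log2 ratio of Ddit4 minus that of Ddit4l was -1.33, with an SE of 0.25 and a range of 2 SE from -1.83 to -0.83. For Arrdc3 minus Arrdc2 the difference was -0.61 with an SE of 0.25 (range -1.12 to -0.11).

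Txnip, the alpha-arrestin that responds to glucose, was at 244 FPKM in Fundc1-mKO and 232 FPKM in WT, and Arrdc3 minus Txnip was -0.89 with an SE of 0.24. Arrdc3 minus Arrdc1 had a range of -1.72 to -0.27, and Arrdc3 minus Arrdc4 was -0.76 with an SE of 0.40 and a range that includes 0. Sgk1 minus Sgk3 was -0.45 with an SE of 0.29, also including 0. Cebpd minus Cebpa was -0.61 with an SE of 0.28, and Cebpd minus Cebpb was -0.25 with an SE of 0.26. Of 12 such pairs, 5 had a range of 2 SE without 0. These pairs were chosen with earlier results known, share Arrdc3 and Cebpd between them, and rest on the authors' errors taken as independent, so no test is attached. Of all 18 tested relatives of the 10 genes none passed q, beside 3.17% of all tested rows. The authors' deposited table gives 2 of the 18 a raw p below 0.05, beside 13.7% of all tested rows. The median log2 ratio of FPKM + 1 of these relatives was 0.05, beside -0.02 over all 12490 tested genes.

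**Figure D4:**
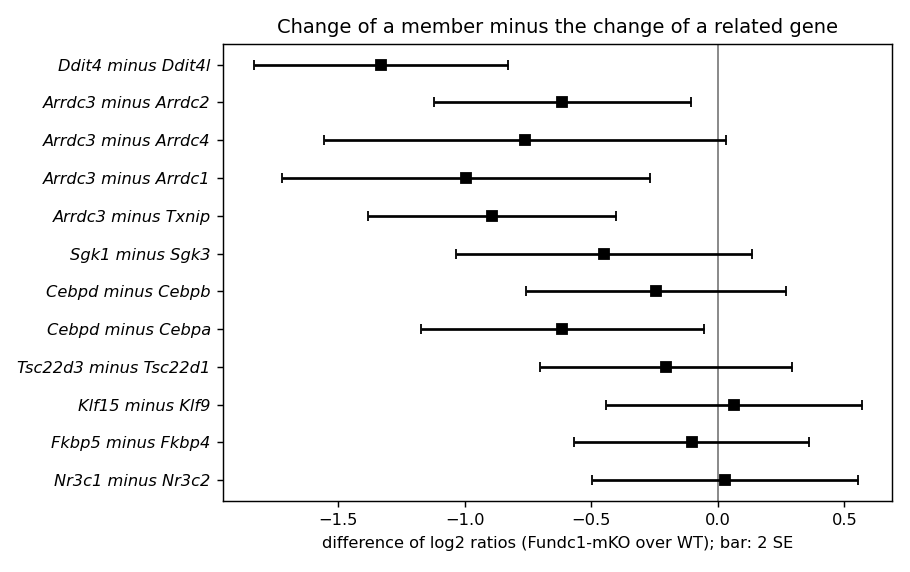
Log2 ratio (Fundc1-mKO over WT) of a gene minus that of a related gene, for 12 pairs, with bars of 2 SE. The bars of Ddit4 minus Ddit4l and of Arrdc3 minus Arrdc2, Arrdc1 and Txnip lie below 0, as does that of Cebpd minus Cebpa, and the other bars cross 0.

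Of the receptor's chaperones, hormone-converting enzymes and coregulators, no tested gene rose or fell, and Hsd11b2 was untested. Of 18 tested genes of this list none passed q, beside 3.17% of all tested rows. The authors' deposited table gives none a raw p below 0.05, beside 13.7% of all tested rows. The log2 ratios ran from -0.13 to 0.13. Hsp90ab1, the constitutive HSP90 gene, was at 848 FPKM in Fundc1-mKO and 915 FPKM in WT. Fkbp4, the co-chaperone that helps carry the receptor to the nucleus, was at 104 FPKM in Fundc1-mKO and 99.9 FPKM in WT. Hspa8 was at 774 FPKM in Fundc1-mKO and 827 FPKM in WT, and Stip1 at 68.5 FPKM in Fundc1-mKO and 72.7 FPKM in WT; both encode chaperones of the receptor's folding cycle. The median log2 ratio of FPKM + 1 was -0.02, the same as over all tested genes.

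Among 22 other genes known as glucocorticoid targets, 8 fell and none rose, and 16 were at lower FPKM in Fundc1-mKO, beside 2.25%, 0.92% and 56.6% of all tested rows. With the authors' statistic read against a normal distribution, described at the end, 1 of the 22 passed, Mt1, beside 0.198% of all tested rows. The list's median log2 ratio of FPKM + 1 was -0.17. The metallothionein gene Mt1 was at 576 FPKM in Fundc1-mKO (interval 484 to 668) and 949 FPKM in WT (interval 787 to 1110). Its neighbour Mt2 was at 675 FPKM in Fundc1-mKO and 1047 FPKM in WT, and the intervals of these 2 genes alone in the list were apart. Lcn2, the iron-carrier-binding lipocalin, was at 15.8 FPKM in Fundc1-mKO and 21.2 FPKM in WT. Angptl4, an inhibitor of lipoprotein lipase, was at 11.9 FPKM in Fundc1-mKO and 15.5 FPKM in WT.

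The other 4 that fell were Pdk4, Irs2, Anxa1 and Cdkn1a, by 18.5% to 25.4%. Pdk4 restrains pyruvate dehydrogenase, Irs2 is an insulin receptor substrate, Anxa1 encodes annexin A1 and Cdkn1a the cell cycle inhibitor p21. The others did not pass q and lay on both sides of WT. Klf9, a receptor-induced transcription factor gene, was at 46.6 FPKM in Fundc1-mKO and 48.5 FPKM in WT. The clock gene Per1 was at 13.8 FPKM in Fundc1-mKO and 14.6 FPKM in WT, both genes being named after their values were seen. Dusp1, which encodes a phosphatase of MAP kinases and was likewise named afterwards, was at 64.7 FPKM in Fundc1-mKO and 51.0 FPKM in WT, with q = 0.107 in the authors' deposited table.

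**Figure D5:**
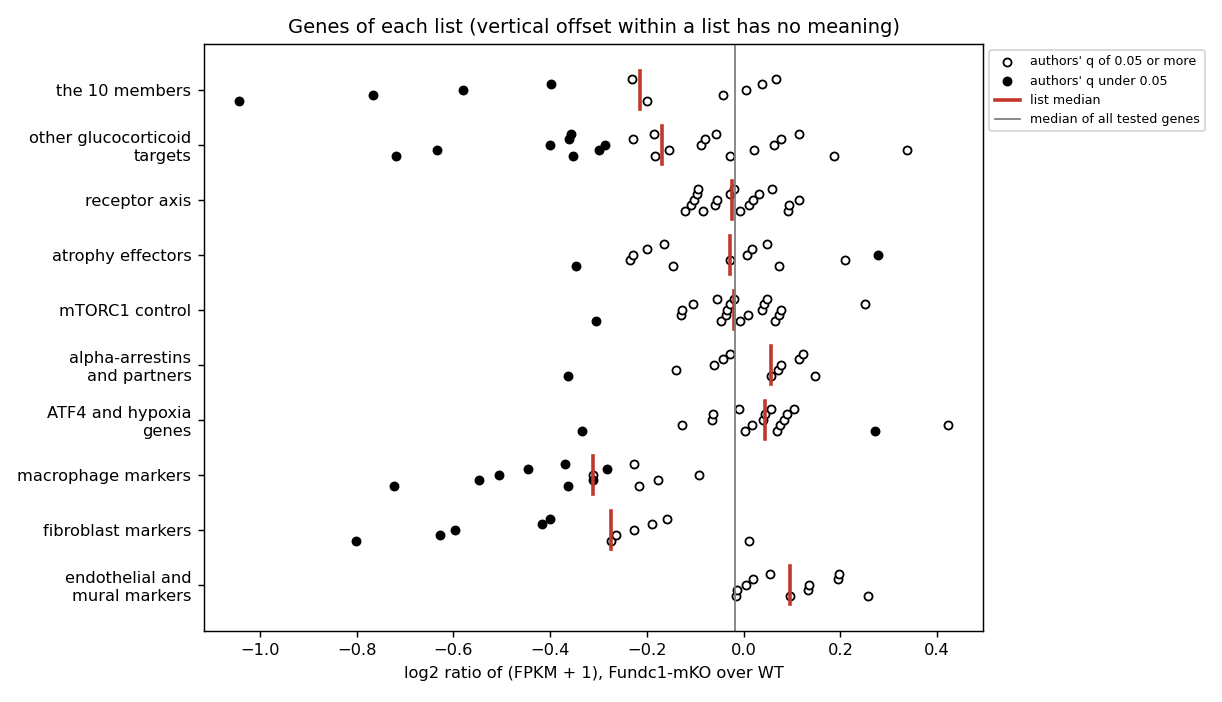
Log2 ratio of FPKM + 1, Fundc1-mKO over WT, for the genes of 10 lists; each point is a gene, filled where its q in the authors' table was under 0.05, red bars are list medians and the grey line is the median of all tested genes. The 10 members lie from clearly lower to about level, the other glucocorticoid targets reach from lower to higher, the receptor axis stays close to the line, and the macrophage and fibroblast markers lie mostly left of it.

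Downstream genes of muscle wasting gave a mixed picture. Of 13 atrophy effectors 1 fell and 1 rose, beside 2.25% and 0.92% of all tested rows. Their median log2 ratio of FPKM + 1 was -0.03. Trim63, the ubiquitin ligase MuRF1, was at 234 FPKM in Fundc1-mKO and 298 FPKM in WT. Foxo1, a transcription factor gene of the atrophy program, was at 14.4 FPKM in Fundc1-mKO and 11.7 FPKM in WT. Map1lc3b and Bnip3, genes of autophagy and mitophagy, were at 221 FPKM and 191 FPKM in Fundc1-mKO and at 213 FPKM and 189 FPKM in WT.

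Apart from Ddit4, 19 genes that control mTORC1 were tested. Of these Eif4ebp1 fell and none rose, beside 2.25% and 0.92% of all tested rows, with a median of -0.02. Eif4ebp1, a translation inhibitor that mTORC1 switches off, was at 89.8 FPKM in Fundc1-mKO and 111 FPKM in WT. Its relative Eif4ebp2 was at 81.8 FPKM in Fundc1-mKO and 77.4 FPKM in WT. Akt1s1, which encodes an inhibitory mTORC1 component, was at 103 FPKM and 105 FPKM, and Rragd, a GTPase gene of amino acid sensing, at 85.4 FPKM and 83.1 FPKM, each in Fundc1-mKO and in WT.

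Around Arrdc3, 11 alpha-arrestins and partners were tested, 5 at lower and 6 at higher FPKM in Fundc1-mKO. The ubiquitin ligase gene Nedd4 was at 132 FPKM in Fundc1-mKO and 135 FPKM in WT, and Wwp1, of the same ligase family, at 47.1 FPKM in Fundc1-mKO and 42.5 FPKM in WT. The median of the list was 0.06.

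Other inducers known for Ddit4 are ATF4 and hypoxia signalling, and their part in its level was not tested. Of 17 genes of these 2 inputs 1 fell and 1 rose, beside 2.25% and 0.92% of all tested rows. FPKM in Fundc1-mKO was lower for 5 and higher for 12, beside 56.6% of all tested rows at lower FPKM. The median was 0.04. Chac1, a glutathione-degrading ATF4 target, was at 36.7 FPKM in Fundc1-mKO and 46.5 FPKM in WT. Vegfa, a hypoxia target, was at 50.4 FPKM in Fundc1-mKO and 41.7 FPKM in WT. Atf4 was at 96.3 FPKM in Fundc1-mKO and 89.5 FPKM in WT.

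Markers of other cell types moved in the same samples. All 13 macrophage markers were at lower FPKM in Fundc1-mKO and 8 fell, beside 56.6% and 2.25% of all tested rows. Their sum was 273 FPKM in Fundc1-mKO and 347 FPKM in WT. Of 11 fibroblast markers 10 were lower and 5 fell, with sums of 285 FPKM in Fundc1-mKO and 329 FPKM in WT. Under the normal reading 0 of the 13 macrophage markers and 1 of the 11 fibroblast markers passed, beside 0.198% of all tested rows. The authors' deposited table gives 12 and 8 of these markers a raw p below 0.05, beside 13.7% of all tested rows. Cd68 of macrophages was at 14.8 FPKM in Fundc1-mKO and 25.0 FPKM in WT, and Postn of fibroblasts at 3.70 FPKM in Fundc1-mKO and 7.20 FPKM in WT. In bulk muscle fewer cells of a type and less RNA per cell cannot be told apart. The part of these cells in the lower levels of Ddit4, Arrdc3, Sgk1 and Cebpd was not tested.

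Markers of the remaining cell types did not share this direction throughout. Over all tested rows 2.25% fell, 0.92% rose and 56.6% were at lower FPKM in Fundc1-mKO. The authors' deposited table gives 13.7% of them a raw p below 0.05. No q under the threshold was seen for the 11 markers of endothelium and mural cells, 3 having a raw p below 0.05 by the authors' deposited table. FPKM in Fundc1-mKO was higher for 9 of the 11 and lower for 2, with sums of 167 FPKM in Fundc1-mKO and 151 FPKM in WT. Of 9 adipocyte markers 1 rose and 1 fell, with sums of 1208 FPKM in Fundc1-mKO and 1074 FPKM in WT. Fabp4 made up 828 FPKM and 733 FPKM of these sums, with q = 0.270 in the authors' deposited table. Cfd made up 139 FPKM in Fundc1-mKO (interval 1.70 to 277) and 91.2 FPKM in WT (interval 0 to 214). FPKM in Fundc1-mKO was higher for 6 of the 9 and lower for 3. Of 6 tested granulocyte markers 5 rose, with sums of 272 FPKM in Fundc1-mKO and 197 FPKM in WT. S100a8 alone made up 184 FPKM and 136 FPKM of these sums. Elane was listed at 0 in Fundc1-mKO. Under the normal reading 0 of these 6 granulocyte markers passed, beside 0.198% of all tested rows. All 6 had a raw p below 0.05 by the authors' deposited table. Among 7 markers of Schwann cells the authors' deposited table gives none a q or a raw p below 0.05. FPKM in Fundc1-mKO was lower for 6 of the 7 and higher for 1, with sums of 84.5 FPKM in Fundc1-mKO and 91.7 FPKM in WT. Lymphocyte markers were scarce, 7 of 8 being untested and Cd8a and Ms4a1 listed at 0 in WT. The tested one, Cd3e, was at 0.589 FPKM in Fundc1-mKO and 0.759 FPKM in WT, with a raw p of 0.0482 and q = 0.357 in the authors' deposited table. Of 7 tested myofibre markers 5 were at lower FPKM in Fundc1-mKO and 1 fell, Myh2, a fast myosin gene at 384 FPKM in Fundc1-mKO and 487 FPKM in WT. High levels fitted the tissue label: the 7 summed to 14442.5 FPKM in Fundc1-mKO and 14369.8 FPKM in WT, of which Pvalb made up 6219 FPKM and 5705 FPKM, while 7 more, such as Ckm and Acta1, were marked by the authors as holding too many fragments and had no usable value.

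By both group values together, the genes nearest to Ddit4 were Lgals3, Col3a1 and Slc25a25, and those nearest to Arrdc3 were Cilp, Odf3l2 and Angptl4. Likeness was the distance between log2 FPKM values over the 2 groups, so it reflects level and change and nothing else. Lgals3, the nearest, was at 22.0 FPKM in Fundc1-mKO and 38.0 FPKM in WT, 0.23 from Ddit4 on the log2 scale. Cilp was at 12.5 FPKM in Fundc1-mKO and 16.8 FPKM in WT, 0.28 from Arrdc3.

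The calls rest on how the authors' p was obtained. Their test statistic was read against a normal distribution with Benjamini-Hochberg adjustment over all tested rows. Ddit4 and Arrdc3 then passed, with adjusted p of 1.03e-05 and 0.00403. Sgk1, with 0.156, and Cebpd, with 0.999973, did not. That reading called 0.198% of all tested rows. Among rows with a raw p of 0.04 to 0.06 in the authors' deposited table, the median absolute statistic was 0.98. A normal distribution gives a larger p at that value, so counts by raw p are looser than this reading.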

How the data were processed

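Libraries of 2 Fundc1-mKO and 2 WT gastrocnemius muscles were prepared with a NEBNext Ultra RNA kit according to the labels' protocols. FastQC 0.11.3, TopHat2 2.0.14, Cufflinks 2.2.1 and mm10 are named in the submitters' processing notes without a role. The authors deposited 1 FPKM per gene and group with lower and upper bounds, which are other values deposited by the authors on the same scale. The deposited test statistic is a score, and the deposited p-value and q-value are the authors' own, per the file headers. The p-value goes no lower than 5e-05, where 209 rows stand. The sources used here do not give annotation, settings or depth.

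From these values ratios of FPKM were computed. An SE was derived by taking a bound as 2 SD from the FPKM; it returned the authors' statistic within 1% in 99.9% of 14100 rows. The normal reading was also run on simulated data with noise drawn from the authors' intervals. That run takes the intervals as right and cannot check them. A linear model per library could not be fitted. A symbol in several rows was represented by the tested row with the highest mean, 12490 symbols in all, and list ratios carry a pseudocount of 1. An older symbol was used for 1 list gene (Gatsl3 for Castor1). Locus starts had 1 added, so coordinates count from 1.

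The 10 genes, the 7 pathway lists and the 8 marker lists were chosen with earlier results of these data known. Named were all 10, up to 4 genes per pathway list and up to 2 per marker list, first those with a q under 0.05 by size of change and then by mean FPKM, and the 3 genes nearest to Ddit4 and to Arrdc3. Promoter letters came from RefSeq windows of 300 bases. Of the 10 genes 7 were searched, windows of the 10 on chromosome 18 being left out. Proteins were not analysed here. The result of 1 gene is not reported here. Alternatives were other pseudocounts, scalings, thresholds, minimum FPKM values and the promoter part before the start. Python 3.11.15, numpy 2.4.6, pandas 2.3.3 and scipy 1.17.1 were used.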

Additional observations from a re-analysis of the deposited data

How the results depend on the processing

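No paired analysis was possible because the table holds 1 value per group and no value per library, and leaving out a library could not be run for the same reason. Under the normal reading of the authors' statistic 2 of the 10 genes passed in place of 4. Of the other glucocorticoid targets 1 (Mt1) passed in place of 8. So did 0 atrophy effectors, 0 mTORC1 genes, 0 alpha-arrestins and partners and 0 ATF4 and hypoxia genes, beside 0.198% of all tested rows. These last 4 lists hold 13, 19, 11 and 17 tested genes, in that order. The authors' deposited table gives 7, 2, 1 and 3 of them a raw p below 0.05, beside 13.7% of all tested rows. With bars narrowed to 1 SD, intervals were apart for 5 of the 10 genes in place of 3. The share of all tested rows apart at that width was not computed, so nothing is read from this count. All 40 log2 ratios of the 10 genes under other pseudocounts (0.1 and 1) and scalings moved by less than 1 SE, and equal medians shifted every ratio by 0.03 on the log2 scale. The other alternatives left each count within 1.5 times of the reported one. Depth is unknown, so it sets no stated limit.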

Other observations

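The Klf15 promoter window held the E-box letters CACGTG at 3 places, beginning at positions -228, -172 and -3 relative to the start, where 7.15% of all 32851 mouse windows held the letters at all. The Fkbp5 window held them once, beginning at position -169, and the fifth Sgk1 window once, beginning at position -246. No window of the 7 genes held the forkhead letters GTAAACA, found in 3.65% of all windows, or the C/EBP-ATF letters TGATGNAAT, found in 0.965%. The palindromic C/EBP motif was in none of the 16 windows either, and in 0.183% of all windows.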
